A study of Homo sapiens with 6 samples.

Results

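Coenzyme Q synthesis genes were examined in SH-SY5Y cells, a human neuroblastoma line whose labels call it a neuronal progenitor, after the nuclear receptor ERRγ was raised. The set held 10 genes named by their role in the synthesis of ubiquinone (*PDSS1*, *COQ2* to *COQ7*, *COQ8A*, *COQ8B* and *COQ9*) out of 67060 genes in the deposited table, and all 10 were among the 24500 that passed the filter on low counts. Total RNA was sequenced from 3 libraries of cells given a GFP adenovirus (Ad CMV GFP, replicates 1, 3 and 4) and 3 libraries of cells given an adenovirus with 3xFlag-tagged *Esrrg* (Ad CMV 3xFlag-*Esrrg*, replicates 2, 3 and 4), all collected 24 h later. Every cell culture was therefore exposed to an adenovirus, and the CMV promoter is active in most cell types. The added sequence is that of the mouse, in 1 human cell line. Nothing in the sources used here says whether the replicates were separate cultures, so p-values measure only the spread between these libraries, which may be technical. The comparison asked which of these genes differed when Flag-*Esrrg* was expressed.

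Coenzyme Q is a lipid of the inner mitochondrial membrane that carries electrons from complex I, complex II and several other dehydrogenases to complex III, and in its reduced form it is also an antioxidant of membranes. A long isoprenoid tail, built by a synthase of *PDSS1* and *PDSS2* from products of the mevalonate pathway, is joined to a ring by *COQ2*. The ring is then methylated, hydroxylated and decarboxylated by enzymes that sit together in a complex of the matrix face, helped by kinase-like and lipid-binding proteins. ERRγ is an orphan nuclear receptor, known in muscle, heart and neurons for its part in the expression of genes of oxidative metabolism, and it binds an extended half-site in DNA.

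Promoter sequence was looked up for the members, since the virus raised a DNA-binding factor. RefSeq windows on GRCh38.p14, from 250 bases before to 50 bases after a gene's start, were at hand for 8 of the 10 members, with 14 windows among them, while *COQ3* and *COQ4* had none. The extended ERR half-site TCAAGGTCA, searched on both strands, was in none of the 14 windows and in 0.353% of all 35116 windows. Its 7-letter core AAGGTCA, which lies inside the longer motif, was also in none of the members' windows, against 3.921% of all windows. The 6-letter half-site AGGTCA, which lies inside both and was added after neither had been found, was in 2 of the members' 14 windows (14.3%) and in 13.831% of all windows. Both windows were of *COQ7*, and they overlap and hold the same site. By gene it was in 1 of 8 members (12.5%), against 16.528% of all genes with windows, so it was about as common among the members as elsewhere. A motif that is not in a window says only that these letters are not there. The 3 windows below are shown as far as the start. They are of *COQ9*, the member with the largest rise as first tested, *PDSS1*, which also rose, and *COQ7*. That of *COQ7* holds the 6 letters, and *COQ7* did not pass the test. The windows were picked after the values were seen. The last capital marks the base at the RefSeq start, and the other capitals mark AGGTCA.
*COQ9* at chr16:57447229-57447479, plus strand: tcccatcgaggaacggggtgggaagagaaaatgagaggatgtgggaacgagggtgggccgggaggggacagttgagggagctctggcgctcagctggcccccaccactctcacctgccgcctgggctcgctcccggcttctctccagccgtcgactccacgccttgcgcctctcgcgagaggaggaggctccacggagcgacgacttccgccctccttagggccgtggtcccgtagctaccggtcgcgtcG
*PDSS1* at chr10:26697451-26697701, plus strand: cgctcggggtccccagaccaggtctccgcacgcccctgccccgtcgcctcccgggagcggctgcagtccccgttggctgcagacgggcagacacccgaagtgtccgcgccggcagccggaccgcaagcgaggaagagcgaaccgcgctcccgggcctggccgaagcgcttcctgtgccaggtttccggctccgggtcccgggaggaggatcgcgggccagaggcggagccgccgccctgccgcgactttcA
*COQ7* at chr16:19067657-19067907, plus strand: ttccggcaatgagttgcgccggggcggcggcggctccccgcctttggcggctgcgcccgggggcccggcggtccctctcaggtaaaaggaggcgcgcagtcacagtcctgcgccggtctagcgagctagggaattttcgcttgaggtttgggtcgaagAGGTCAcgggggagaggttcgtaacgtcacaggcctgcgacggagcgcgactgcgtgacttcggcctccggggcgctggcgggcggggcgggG
GC content was 67.7% in the *COQ9* sequence, 74.5% in that of *PDSS1* and 70.5% in that of *COQ7*. The half-site began 92 bases before this *COQ7* start, at chr16:19067815-19067820, and lay in an intron of the 6 annotated *COQ7* transcripts (of 11) that span it, in the exon of none.

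Counts on genes came to between 24969759 and 29700980 in the GFP libraries and between 26513620 and 40859666 in the Flag-*Esrrg* libraries. Reads outside annotated genes made up 51.3% to 52.2% of the GFP libraries, but 46.6%, 31.6% and 29.5% of Flag-*Esrrg* replicates 2, 3 and 4, so replicate 2 stood apart from replicates 3 and 4. Human *ESRRG*, which the mouse sequence can match only in part, had 83.6, 90.4 and 86.9 CPM (counts scaled to the library's total on genes by the TMM method) in GFP libraries and 569.6, 772.2 and 777.7 CPM in Flag-*Esrrg* libraries, 8.12-fold higher (log2 fold change 3.02 ± 0.14 SE, adjusted p = 6.28e-07). Of 8 markers of adrenergic neuroblasts, 7 had counts and *TH* was listed at 0 in all libraries, with a summed level of 698 to 760 CPM in GFP and 522 to 692 CPM in Flag-*Esrrg* libraries, and 1 was called higher and 2 lower. The 8 mesenchymal markers, genes of the substrate-adherent cells that SH-SY5Y cultures can hold, were all detected, with a summed level of 5868 to 5959 CPM in GFP and 6423 to 6722 CPM in Flag-*Esrrg* libraries, and 1 was called lower. That higher sum came from *FN1* (fibronectin), without which the other 7 summed to 3901 to 3982 CPM in GFP and 3802 to 4035 CPM in Flag-*Esrrg* libraries. The part of these markers and of the reads outside genes in the results was not tested.

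Of the 10 coenzyme Q synthesis genes, 4 rose in Flag-*Esrrg* cells (*COQ9*, *COQ3*, *PDSS1* and *COQ4*) and 0 fell. A gene was called when its adjusted p (quasi-likelihood test of edgeR) was below 0.05 and its change at least 1.5-fold. By that rule 17.3% of the 24500 genes tested were called higher and 16.8% lower, and of the 13746 protein-coding genes tested, to which all members belong, 25.9% were higher. Without the fold requirement 8 of the 10 passed the test, all higher, against 24.3% of all genes. Of the 13746 protein-coding genes, 8245 passed it in either direction. The count of members fell to 4 with library size as the only scaling or with adjustment for reads outside genes, and to 6 after correction for GC content and length. It was 7, without *COQ6*, among protein-coding genes only, and when any 1 library other than Flag-*Esrrg* replicate 2 was left out. It rose to 9, with *COQ7*, without Flag-*Esrrg* replicate 2 or with the replicate number added to the model. In that model replicates 1 and 2, each found in 1 group only, carry no weight in the change. Both fits therefore leave Flag-*Esrrg* replicate 2 out of the change and are not separate checks. In those same 8 genes as first tested, every Flag-*Esrrg* library lay above every GFP library, which was so for 27.8% of all genes. Of the 13746 protein-coding genes, 9659 had groups that did not overlap, in either direction. The median log2 fold change of the 10 was 0.55, beside a median of -0.10 over all genes tested and 0.12 over protein-coding genes. Summed over the 10 genes, the level was 187 ± 3.97 CPM (SD, n = 3) in GFP libraries and 311 ± 31.7 CPM in Flag-*Esrrg* libraries, a ratio of 1.66, and without *COQ9* the ratio was 1.47.

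**Figure D1:**
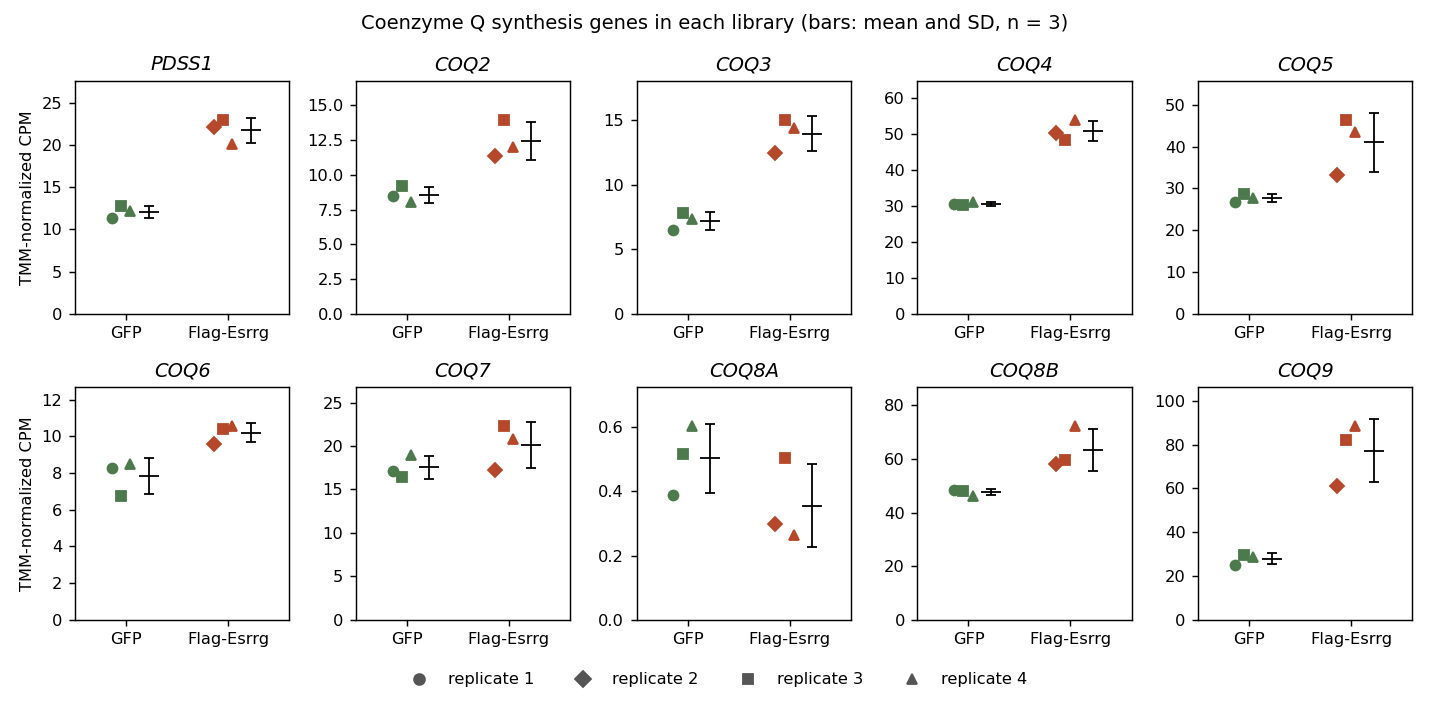
Level of each coenzyme Q synthesis gene in each library, in TMM-normalized CPM, with symbols for the replicate number and a bar for the mean and SD of 3 libraries per group. The groups are separate for 8 genes and overlap for *COQ7* and *COQ8A*, and the highest values of *COQ9*, 82.3 and 88.5 CPM, are in Flag-*Esrrg* replicates 3 and 4.

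The tail-forming genes stand first in the pathway. *PDSS1* (chr10:26697701-26746798), a subunit of the prenyl diphosphate synthase, had 11.3, 12.7 and 12.1 CPM in GFP libraries and 22.2, 23.02 and 20.1 CPM in Flag-*Esrrg* libraries. The groups did not overlap, and Flag-*Esrrg* replicate 2 lay between replicates 3 and 4. *PDSS1* rose 1.80-fold (95% confidence interval 1.53 to 2.12, log2 fold change 0.85 ± 0.11 SE, adjusted p = 0.000153), and ABI1 on the opposite strand covers 10.8% of its exon bases. Its processed pseudogene *PDSS1P1* moved the other way, from 42 to 45 counts in GFP libraries to 19 to 27 counts in Flag-*Esrrg* libraries (log2 fold change -0.98, adjusted p = 0.00629). Whether reads were shared between gene and pseudogene was not tested. *PDSS2*, the other subunit and not one of the 10, had 12.8, 14.8 and 15.6 CPM against 16.2, 17.1 and 17.2 CPM (1.17-fold, interval 0.989 to 1.39, adjusted p = 0.112). Within each library the log2 ratio of *PDSS1* to *PDSS2* counts was therefore -0.25 ± 0.10 (SD, n = 3) in GFP and 0.37 ± 0.13 in Flag-*Esrrg* libraries, with no overlap. The pair was chosen with its values known, so this ratio is a description.

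*COQ2* (chr4:83261536-83284914), the membrane prenyltransferase that joins tail and ring, had 8.44, 9.18 and 8.07 CPM in GFP libraries and 11.4, 13.96 and 12 CPM in Flag-*Esrrg* libraries. Its groups did not overlap. It passed the test but not the fold requirement (1.46-fold, interval 1.202 to 1.76, adjusted p = 0.00487).

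The methyltransferases of the ring lay on either side of the fold requirement, with intervals that overlapped, and the difference between them was not tested. *COQ3* (chr6:99369401-99394195), an O-methyltransferase that acts at separate steps of the ring's modification, had 6.46, 7.79 and 7.31 CPM in GFP libraries and 12.4, 15.03 and 14.4 CPM in Flag-*Esrrg* libraries. All Flag-*Esrrg* values were well above all GFP values, and *COQ3* rose 1.94-fold (interval 1.596 to 2.36, log2 fold change 0.96 ± 0.13 SE, adjusted p = 0.000231). *COQ5* (chr12:120503279-120534434), the C-methyltransferase, had 26.6, 28.8 and 27.7 CPM in GFP libraries and 33.1, 46.4 and 43.5 CPM in Flag-*Esrrg* libraries. Here replicate 2 lay nearer to the GFP libraries than replicates 3 and 4 did. *COQ5* was 1.48-fold higher (interval 1.22 to 1.80, adjusted p = 0.00397), just under the 1.5-fold requirement. Left without Flag-*Esrrg* replicate 2, *COQ2* and *COQ5* passed it, with log2 fold changes of 0.71 and 0.81, and left without GFP replicate 3 they did so with 0.60 and 0.60. *COQ2* and *COQ5* were thus the members just outside the requirement, and *COQ4*, at a log2 fold change of 0.73, was the one just inside.

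The ring hydroxylases had the smaller differences. *COQ6* (chr14:73949926-73963670), a flavoprotein hydroxylase, had 8.30, 6.73 and 8.49 CPM in GFP libraries and 9.61, 10.4 and 10.6 CPM in Flag-*Esrrg* libraries. The groups were separate by little, and the difference was 1.30-fold (interval 1.06 to 1.59, adjusted p = 0.0342). *COQ6* did not pass the test when any 1 library other than Flag-*Esrrg* replicate 2 was left out (adjusted p between 0.0565 and 0.154). Without that replicate it passed (adjusted p = 0.000265). Genes on the opposite strand (*ENTPD5* and *FAM161B*) cover 39.5% of the exon bases of *COQ6*, and whether counting used the strand is not given in the sources used here. *COQ7* (chr16:19067614-19080095), the di-iron hydroxylase of the penultimate step, had 17.2, 16.5 and 19 CPM in GFP libraries and 17.2, 22.3 and 20.8 CPM in Flag-*Esrrg* libraries. Replicate 2 lay among the GFP libraries and the other Flag-*Esrrg* libraries above them. The 1.15-fold difference in *COQ7* did not pass the test (interval 0.953 to 1.38, adjusted p = 0.20), and the interval does not reach 1.5-fold. Its direction changed to lower when library size was the only scaling (log2 fold change -0.13), with adjustment for reads outside genes (-0.12), and when replicate 2 was the only Flag-*Esrrg* library (-0.02). *COQ7* did pass the test, still under the fold requirement, without Flag-*Esrrg* replicate 2 (0.40, adjusted p = 0.000317). The same held with the replicate number added to the model (0.28, adjusted p = 0.0144). That fit also leaves Flag-*Esrrg* replicate 2 out of the change, so it is not a separate check.

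*COQ9* (chr16:57447425-57461270) encodes a lipid-binding protein that presents the substrate to *COQ7*, and it changed most among the members as first tested. It had 25.1, 29.7 and 28.9 CPM in GFP libraries and 60.9, 82.3 and 88.5 CPM in Flag-*Esrrg* libraries. Its lowest Flag-*Esrrg* library, replicate 2, was still above the highest GFP library, and it was at 0.713 of the mean of replicates 3 and 4. *COQ9* rose 2.77-fold (interval 2.23 to 3.44, log2 fold change 1.47 ± 0.14 SE, adjusted p = 4.5e-05). It was called under all 20 other processing choices, with log2 fold changes from 0.96, with adjustment for reads outside genes, to 1.72, without Flag-*Esrrg* replicate 2. The log2 ratio of *COQ9* to *COQ7* counts within a library was 0.67 ± 0.16 (SD, n = 3) in GFP and 1.93 ± 0.14 in Flag-*Esrrg* libraries. Both partners therefore stood further apart in every Flag-*Esrrg* library, between 1.82 and 2.09, than in any GFP library, between 0.55 and 0.85. Of the summed CPM of the 10 genes, *COQ9* made up 13.7% to 15.6% in GFP and 22.1% to 26.3% in Flag-*Esrrg* libraries. *COQ8B*, at 24.4% to 26.5% in GFP libraries, made up 18.6% to 21.5% in Flag-*Esrrg* libraries.

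*COQ4* (chr9:128322544-128334072), a lipid-binding protein of the complex with a role in removing the ring's carboxyl group, had 30.5, 30.1 and 31.1 CPM in GFP libraries and 50.4, 48.3 and 54.0 CPM in Flag-*Esrrg* libraries. Its libraries were close to each other within groups, and the groups were far apart. *COQ4* rose 1.66-fold (interval 1.45 to 1.91, log2 fold change 0.73 ± 0.09 SE, adjusted p = 0.000144). The value shrank to a log2 fold change of 0.34 (adjusted p = 0.0106) after correction for GC content and length, which ended the call, and library size as the only scaling ended it too (0.41). With replicate 2 as the only Flag-*Esrrg* library it was 0.73, still called.

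The kinase-like proteins *COQ8A* and *COQ8B*, paralogues with ATPase activity that the complex depends on, differed widely in level. *COQ8B* (chr19:40691514-40725784) had 48.5, 47.9 and 46.2 CPM in GFP libraries and 58.1, 59.7 and 72.3 CPM in Flag-*Esrrg* libraries. The groups were separate, with replicate 4 the highest, and the difference of 1.33-fold (interval 1.14 to 1.56, adjusted p = 0.00791) was under the requirement. After correction for GC content and length the log2 fold change of *COQ8B* was 0.04 (adjusted p = 0.638). Over 20 alternatives it ran from 0.02, with the replicate number added to that correction, to 0.58, without Flag-*Esrrg* replicate 2. *COQ8A* (chr1:226940286-226987544) had only 11, 16 and 20 counts in GFP libraries and 8, 17 and 9 counts in Flag-*Esrrg* libraries, which is 0.26 to 0.60 CPM. These counts overlapped, and the interval of the difference, 0.403 to 1.25-fold (log2 fold change -0.50 ± 0.37 SE, adjusted p = 0.29), holds both a fall of more than 1.5-fold and no change. A readthrough gene on the same strand, ENSG00000288674, covers 58.3% of the exon bases of *COQ8A* and had 9, 7 and 5 counts in GFP and 2, 10 and 15 counts in Flag-*Esrrg* libraries. Reads in shared exons count for neither gene in the usual HTSeq setting, so *COQ8A* counts may not measure the whole gene. The log2 ratio of *COQ8A* to *COQ8B* counts was -6.53 ± 0.34 (SD, n = 3) in GFP and -7.46 ± 0.59 in Flag-*Esrrg* libraries, a difference of -0.92 with p = 0.2 by the exact permutation test, two-sided, whose smallest possible p is 0.1 with 3 libraries a group.

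**Figure D2:**
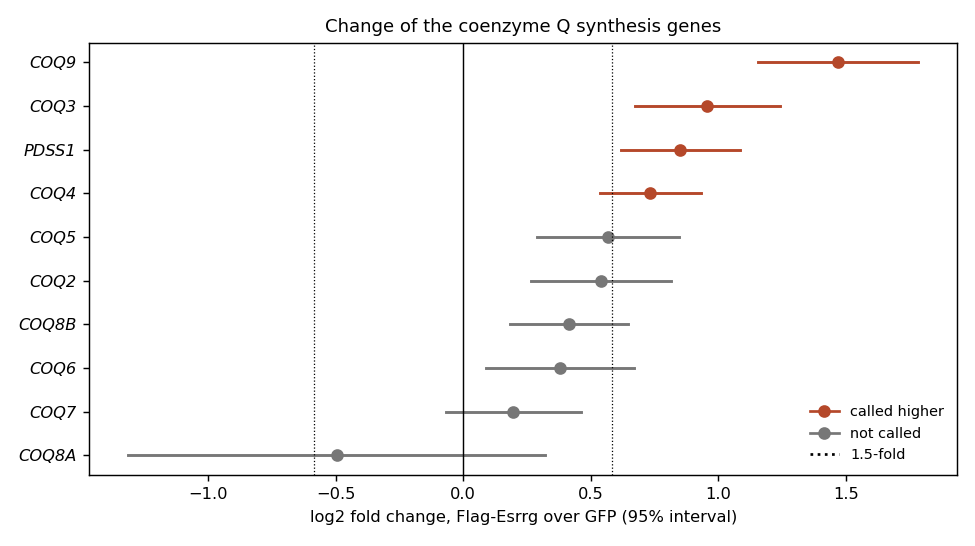
Change of the 10 coenzyme Q synthesis genes, as log2 fold change of Flag-*Esrrg* over GFP with the 95% confidence interval from edgeR (3 libraries a group), ordered by size, with dotted lines at 1.5-fold in either direction. The called genes *COQ9*, *COQ3*, *PDSS1* and *COQ4* lie between 0.73 and 1.47, and only the intervals of *COQ7* and *COQ8A* include 0.

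Levels can be compared between genes only per length, here as CPM per kb of the union of exons. In GFP libraries *COQ5* was the highest at 11.1, followed by *COQ9* (6.46), *COQ4* (6.37) and *PDSS1* (6.31), whose libraries overlapped between neighbours. Then came *COQ3* (4.96) and *COQ7* (4.28), which overlapped, *COQ8B* (3.87), *COQ2* (3.09), *COQ6* (1.17) and, far below, *COQ8A* (0.106). In Flag-*Esrrg* libraries *COQ9* was first at 17.9 and overlapped with *COQ5* at 16.4. *PDSS1* (11.4), *COQ4* (10.6) and *COQ3* (9.64) followed and each overlapped with the next, and so did *COQ8B* (5.16), *COQ7* (4.90) and *COQ2* (4.49). *COQ6* (1.52) and *COQ8A* (0.0752) were again the lowest, each apart from its neighbour. The order depended on the length used: per kb of coding length *COQ4* was first in GFP libraries at 31.0 and overlapped with *COQ9* at 28.8, while in Flag-*Esrrg* libraries *COQ9* was first at 79.7. *COQ8A* was last under all 3 lengths and in both groups, but 58.3% of its exon bases are shared with a readthrough gene. Reads there may go uncounted, so its level per length may be too low.

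**Figure D3:**
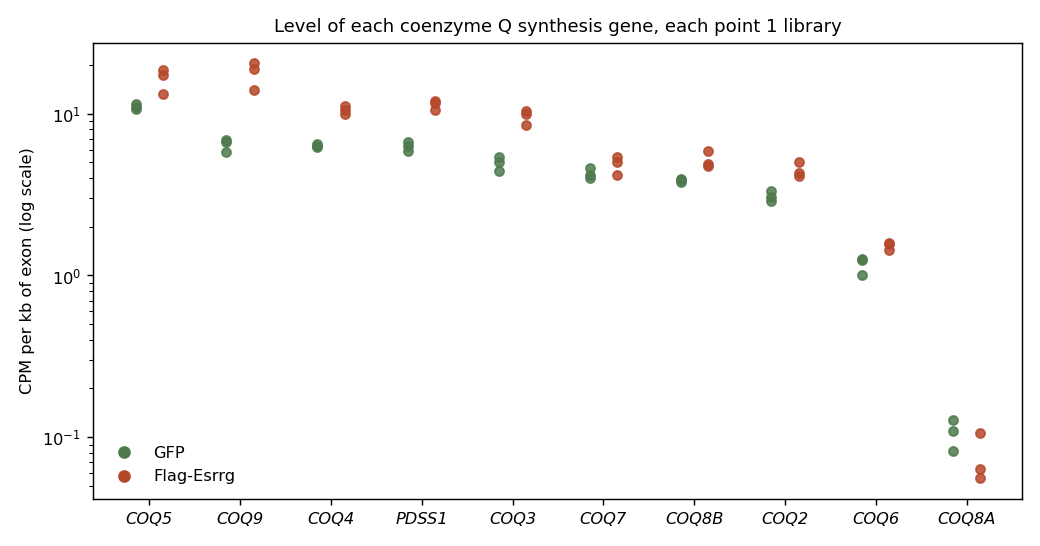
Level of each coenzyme Q synthesis gene per length, in CPM per kb of exon on a log scale, each point 1 library (3 GFP, 3 Flag-*Esrrg*), ordered by the GFP mean. *COQ9* moves from 6.46 to 17.9 and so from the second place to the first. *COQ8A* is the lowest at 0.106 and 0.0752, but reads in the exons it shares with a readthrough gene may go uncounted.

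Accessory genes of coenzyme Q synthesis, a list of 13 with roles in its supply, delivery or regulation, were taken as a comparison. The list was drawn up with results of these data known. Of the 11 that passed the filter, 6 rose (54.5%) and 0 fell, against the 25.9% of protein-coding genes called higher, and their median log2 fold change was 0.64, against 0.12. *FDXR*, the reductase that passes electrons through ferredoxin to enzymes that include *COQ6*, had 28.5, 37.3 and 34.8 CPM in GFP libraries and 87.8, 124 and 136 CPM in Flag-*Esrrg* libraries. It rose 3.46-fold (interval 2.69 to 4.46, log2 fold change 1.79 ± 0.16 SE, adjusted p = 3.45e-05), with every Flag-*Esrrg* library above every GFP library, more than any of the 10 members. *FDX1*, a ferredoxin, had 13.1, 12.8 and 14.4 CPM against 19.97, 28.6 and 28.2 CPM and rose 1.91-fold (interval 1.54 to 2.38, adjusted p = 0.00047). The log2 ratio of *FDXR* to *FDX1* counts was 1.31 ± 0.21 (SD, n = 3) in GFP and 2.17 ± 0.08 in Flag-*Esrrg* libraries, so the reductase stood higher over its partner in every Flag-*Esrrg* library. *FDX2*, the other ferredoxin, had at most 3 counts in any library, with 73.4% of its exon bases shared with readthrough genes of the same strand, and was not tested.

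*STARD7*, a lipid carrier that moves coenzyme Q out of mitochondria, and *PARL*, the protease that releases it, also rose. *STARD7* had 118, 133 and 128 CPM in GFP libraries and 175, 208 and 220 CPM in Flag-*Esrrg* libraries (1.59-fold, adjusted p = 0.000724). *PARL* had 6.92, 8.73 and 7.13 CPM against 12.2, 13.1 and 13.4 CPM (1.70-fold, adjusted p = 0.000802), with 47.2% of its exon bases shared with another gene of the same strand. *PPTC7*, a mitochondrial phosphatase, rose 1.62-fold (adjusted p = 0.000399), from 27.7 to 34.1 CPM in GFP to 48.1 to 52.6 CPM in Flag-*Esrrg* libraries. *ADCK2*, a relative of the COQ8 kinases, rose 1.56-fold (adjusted p = 0.00289), from 11.03 to 11.8 CPM in GFP to 14.4 to 20.3 CPM in Flag-*Esrrg* libraries, but was not called in 9 of 20 alternatives, among them the GC content and length correction (log2 fold change 0.17, adjusted p = 0.122) and the fit without Flag-*Esrrg* replicate 4 (0.53). With adjustment for reads outside genes, *ADCK2* (0.20), *FDX1* (0.42) and *STARD7* (0.36) were not called. The groups were separate in *STARD7*, *PARL*, *PPTC7* and *ADCK2*.

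Among the accessory genes that were not called, *COQ10B*, which binds coenzyme Q, was 1.33-fold higher (adjusted p = 0.00445), and reached a log2 fold change of 0.61, past the requirement, after correction for GC content and length, while its paralogue *COQ10A* was at 1.12-fold (interval 0.861 to 1.45, adjusted p = 0.46). *RTN4IP1*, a mitochondrial oxidoreductase, was at 1.32-fold (interval 1.03 to 1.69, adjusted p = 0.0586). *HPDL*, a dioxygenase of the route to the ring, had 15, 17 and 16 counts in GFP libraries and 13, 12 and 4 counts in Flag-*Esrrg* libraries (log2 fold change -0.74 ± 0.44 SE, adjusted p = 0.188), so that replicate 4 alone was far below the rest. *PYURF*, a partner of methyltransferases, was listed at 0 in all libraries, and all of its exon bases are shared with *PIGY*.

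The pathways around coenzyme Q were read the same way. Of 11 genes of the mevalonate pathway and of prenyl synthesis, 6 rose (54.5%, against 25.9% of protein-coding genes) and 0 fell, with a median log2 fold change of 0.76, against 0.12. Most of them lead to the precursors of the tail, while *FDFT1* leads to sterols and *DHDDS*, which was among the 6, to dolichol. *FDPS*, the farnesyl diphosphate synthase, rose 2.18-fold (adjusted p = 8.43e-05), *PMVK*, the phosphomevalonate kinase, 2.17-fold (adjusted p = 0.000151) and *MVD*, the mevalonate diphosphate decarboxylase, 2.05-fold (adjusted p = 0.000116). The others ranged in log2 fold change from -0.24 to 1.02. Of the 10 tested dehydrogenases that hand electrons to coenzyme Q, 3 rose and 0 fell, with a median of 0.51. That share, 30%, was near the 25.9% of protein-coding genes called higher. These 3 were subunits of succinate dehydrogenase, which is complex II. Its other subunit, *SDHD*, passed the test but not the fold requirement (1.37-fold, adjusted p = 0.00952). *SDHB* rose 2.66-fold (adjusted p = 0.000318), *SDHC* 2.29-fold (adjusted p = 0.000513) and *SDHA* 1.62-fold (adjusted p = 0.000929), and *PRODH* was listed at 0. With adjustment for reads outside genes, 0 of the 10 dehydrogenases were called, where 7.24% of all genes tested were called higher.

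**Figure D4:**
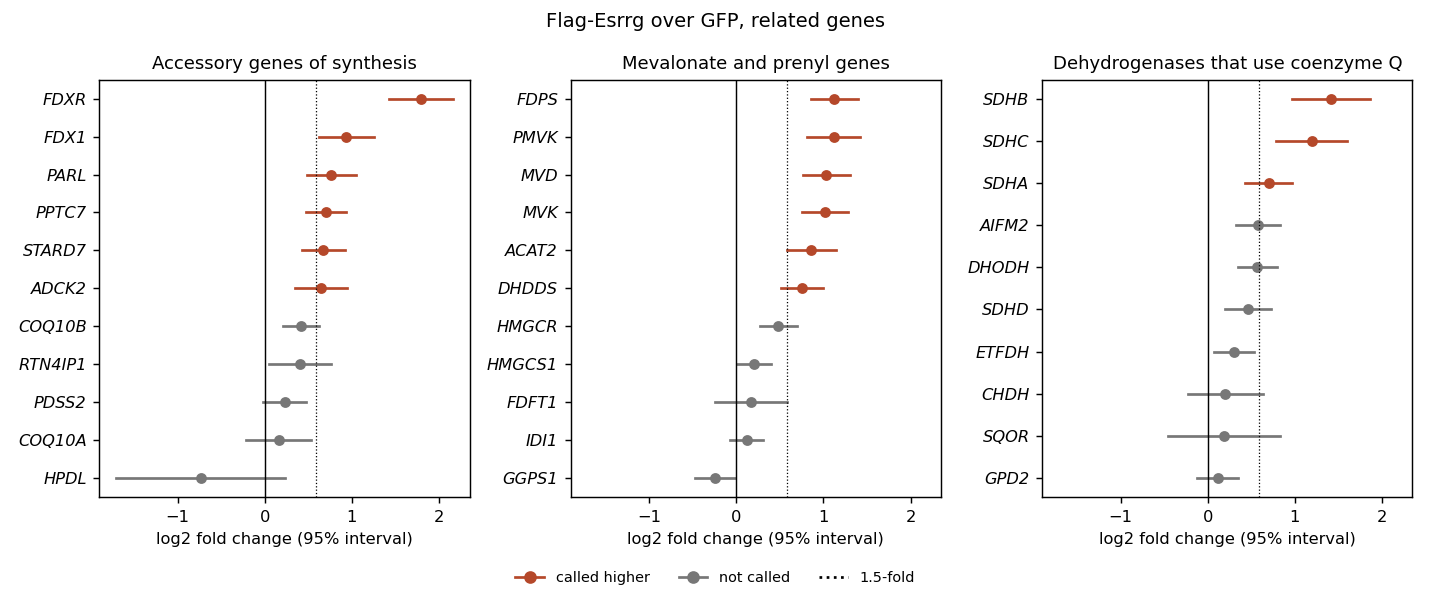
Log2 fold change of Flag-*Esrrg* over GFP with 95% confidence intervals for the tested genes of 3 related lists, the dotted line at 1.5-fold. The called genes number 6 of 11 accessory genes, 6 of 11 mevalonate and prenyl genes and 3 of 10 dehydrogenases, beside 25.9% of protein-coding genes called higher, and *FDXR* lies highest at 1.79.

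The counts of called members moved with the scaling and with the libraries used. With library size as the only scaling, *COQ3* and *COQ9* alone stayed called, and 22.5% of all calls were then higher, against 50.7% with TMM factors. That scaling shifted the median of all genes from -0.10 to -0.42, and relative to it the median of the members was 0.65, against 0.66 with TMM factors. Relative to the same medians *COQ9* stood at 1.56 and 1.57, and *COQ7* at 0.29 and 0.30. A change of scaling moves all genes by nearly the same amount, so these relative values stay alike by construction and are no check of the calls. With Flag-*Esrrg* replicate 2 as the only Flag-*Esrrg* library, whose share of reads outside genes was nearest to the GFP libraries, the called members were again *PDSS1*, *COQ3*, *COQ4* and *COQ9*, and 9.6% of all genes tested were called higher. Those 4 were also called with each library's share of reads outside genes added to the model, where 7.24% of genes were called higher. That share was lower in every Flag-*Esrrg* library than in any GFP library, and least so in replicate 2. Both fits therefore lean on replicate 2 and are not separate checks. Without replicate 2 there were 6 called members, the 4 with *COQ2* and *COQ5*.

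**Figure D5:**
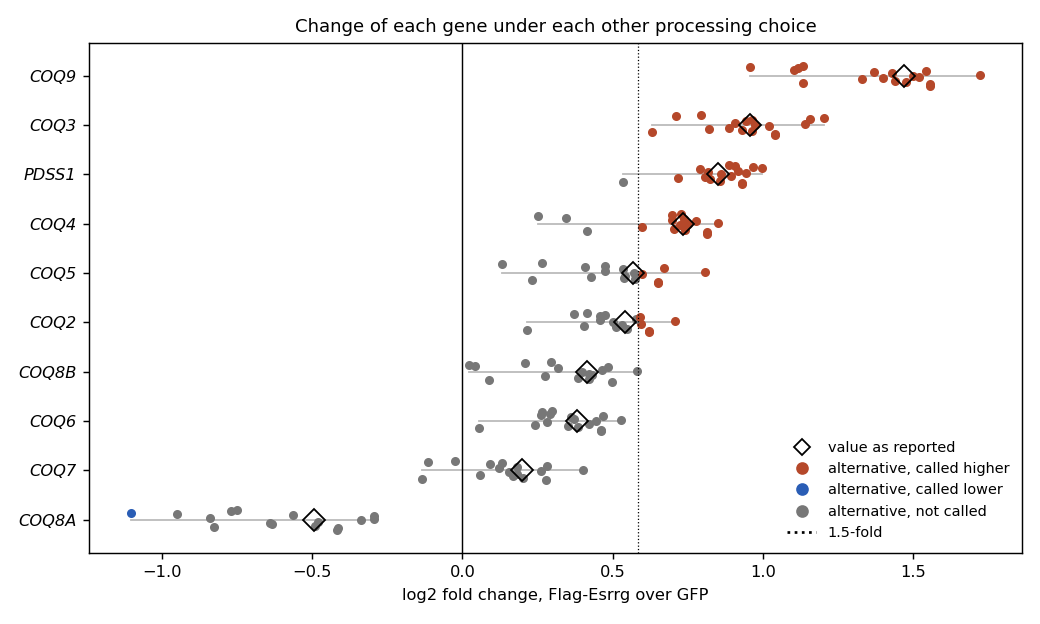
Log2 fold change of each coenzyme Q synthesis gene under the other processing choices that alter the estimate (dots, colored by call), with the reported value as an open diamond. *COQ9* stays between 0.96 and 1.72 and is called throughout, *COQ4* spans 0.25 to 0.85, and *COQ7* runs from -0.13 to 0.40 without a call.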

How the data were processed

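SH-SY5Y cells were compared between 3 GFP and 3 Flag-*Esrrg* libraries, with groups and replicate numbers from the labels. RNA was depleted of rRNA, and libraries kept the strand. The authors deposited raw HTSeq counts for 67060 genes; their processing notes name Trim Galore 0.6.7, STAR 2.7.9a, HTSeq 0.11.3 and GRCh38. The annotation release and strand setting are not given in the sources used here. Identifiers were matched to GENCODE 44, where 90.1% were found, and the rest held 0.153% of counts. The 5 summary entries stayed out of library sizes.

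Counts were tested in R 4.3.3 with edgeR 4.0.16 (filterByExpr, TMM, quasi-likelihood test, Benjamini-Hochberg adjustment over 24500 genes, adjusted p below 0.05 and at least 1.5-fold). Standard errors are the log2 fold change over the root of F, and intervals are 95%. The test was checked on simulated data. Ratios of counts had 0.5 added. The alternatives, 1 of which added each library's reads outside genes to the model, used DESeq2 1.42.0 and mgcv 1.9.3 (GC content and length curves). Members, lists and tests were chosen with earlier results of these data known. Named were all members, *ESRRG*, the tested accessory genes, the 3 called genes of largest change in each of the other pathway lists, and their untested genes. *FDFT1*, *DHDDS* and *SDHD* were also named, to describe their lists. Pseudogene and overlap partners were named where they touch a member. Promoters came from RefSeq.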

Additional observations from a re-analysis of the deposited data

Results flagged for a closer look

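The share of reads that HTSeq set aside as ambiguous, because they fell on more than 1 gene, was outside the comparisons and lay above the GFP libraries (4.55% to 4.87%) in all Flag-*Esrrg* libraries, with 5.69% in replicate 2, 9.84% in replicate 3 and 9.79% in replicate 4. *COQ8A*, *PARL* and *FDX2* share exons with genes of the same strand, and the part of ambiguous reads in their counts was not tested. Groups of 3 libraries are too small for a test of single outlying libraries.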

How the results depend on the processing

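The 4 called members were also called without the filter on low counts, with at least 10 counts in every library, among protein-coding genes, and with each library left out in turn. Counts of called members were 6 with DESeq2, RLE size factors and the replicate block, 8 with no fold cutoff, 2 with library size as the only scaling and 1 at 2-fold, and 3 with the test against a 1.5-fold threshold or the GC content and length correction; the replicate block with the GC content and length correction called *COQ8A* lower (-1.10, adjusted p = 0.0397) and so gave 1 member and 1 accessory gene (*HPDL*) lower. For the shared replicate numbers 3 and 4, the deviations from the group means correlated between the groups at 0.075 and -1e-04. Flag-*Esrrg* replicate 2 stood apart and weighs on those means, so these values cannot decide whether the libraries were paired. The block, which takes its changes from replicates 3 and 4 only, raised dehydrogenases called higher from 3 to 6.

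Leaving out 1 library gave medians of 0.47 to 0.76 (members), 0.53 to 0.83 (accessory), 0.69 to 0.96 (mevalonate) and 0.45 to 0.71 (dehydrogenases), and 3 to 6 dehydrogenases called, with the highest values all without Flag-*Esrrg* replicate 2. With library size as the only scaling the medians were 0.22, 0.31, 0.43 and 0.18 in that order, 2 accessory genes were called, 8.98% of genes were called higher and 30.9% lower, and *COQ7* (-0.13), *PDSS2* (-0.10) and *COQ10A* (-0.18) turned lower. With adjustment for reads outside genes the medians were 0.32, 0.32, 0.43 and 0.30, with 3 accessory genes and 0 dehydrogenases called, 7.24% of genes higher and 5.4% lower, and *COQ7* (-0.12), *COQ10A* (-0.55), *RTN4IP1* (-0.094) and *HPDL* (0.32) changed direction. With Flag-*Esrrg* replicate 2 as the only Flag-*Esrrg* library, an alternative chosen after seeing the data, the medians were 0.36, 0.35, 0.54 and 0.32, with 3 accessory genes called, 9.6% of genes higher and 7.63% lower, and *COQ7* (-0.025) and *COQ10A* (-0.32) turned lower; its spread was assumed to be that of the GFP libraries. The GC content and length correction gave medians of 0.37 (members) and 0.53 (mevalonate; 0.55 with the replicate block) and -0.094 for *COQ10A*. DESeq2 and RLE size factors called 5 dehydrogenases and no fold cutoff 7. The 2-fold cutoff called 1 accessory gene, 7.97% of genes higher and 8.09% lower, the test against 1.5-fold 2 accessory genes, 9.01% higher and 5.66% lower, protein-coding genes only 3 accessory genes, and no filter 10.9% in each direction. Across 9 members without *COQ8A* the highest level per length was 9.45 times the lowest, 6.26 times by coding length and 5.46 times by mean transcript length. For these changes the cause was not tested, beyond what each alternative's construction shows. Counts were few for *COQ8A* (8 to 20 counts a library, interval 0.403 to 1.25-fold), *HPDL* (4 to 17 counts, interval 0.306 to 1.17-fold) and *FDX2*, which did not pass the filter. Whether depth or the exons that *COQ8A* and *FDX2* share with other genes kept their counts few was not tested.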
